A study of Homo sapiens with 18 samples.

Results

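RelA and p52 are DNA-binding subunits of NF-kB, and the comparison set libraries of RelA knockout cells directly against libraries of p52 knockout cells. It held 6 of the 18 libraries of the series, 3 for each knockout, chosen by their labels, and 12381 of the 17155 genes in the deposited table, those with a mean normalised read count of at least 10 over all 18 libraries. Just outside that limit lay NT5C1A, with means of 5.3 in the RelA knockout and 10.96 in the p52 knockout, and just inside it lay UGDH-AS1, with means of 9.01 in the RelA knockout and 8.66 in the p52 knockout. The 3 control libraries give the reference level.

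All cells were GM12878, an Epstein-Barr virus (EBV) transformed lymphoblastoid B-cell line, and the label of every library also gives the genotype as Wildtype LMP1. The groups were a stable CRISPR knockout of RelA (gene RELA), a stable CRISPR knockout of p52 (gene NFKB2), and a control with a non-targeting guide. Lentivirus delivered each guide, a 5-day puromycin selection (3 µg/ml) followed, and loss of the subunit was checked by immunoblot, per the labels' protocols. Libraries were made from the poly(A) fraction of 1 µg total RNA with a strand-specific kit. The sources used here do not say whether the cells were pools or clones, or whether replicates were separate transductions.

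NF-kB works in 2 linked arms. In the canonical arm the IKK complex degrades the IkB inhibitors and releases dimers such as RelA with p50, which switch on inflammatory and survival genes together with the genes of their own inhibitors. In the non-canonical arm the NFKB2 product p100, which holds other subunits in the cytoplasm, is cut to p52, which acts mainly with RelB. The viral protein LMP1 mimics an active CD40 receptor and drives both arms in lymphoblastoid cells.

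For some genes the results turn on, the promoter windows hold matches to the binding motifs of NF-kB or of interferon-activated factors, and 6 of them are shown with the matches in capitals. The windows run from 250 bases before to 50 after the transcription start and come from RefSeq on GRCh38.p14, while the reads were aligned by the submitters to GRCh37. The first 4 belong to genes that were lower in the RelA than in the p52 knockout, and their capitals mark the 10-letter kB consensus on either strand: TNFRSF9 (4-1BB, chr1:7940790-7941089, minus strand), EBI3 (chr19:4229273-4229572, plus strand), NFKBIA (IkB-alpha, chr14:35404700-35404999, minus strand) and BIRC3 (cIAP2, chr11:102317234-102317533, plus strand). The last 2 belong to interferon-stimulated genes that were higher in the RelA knockout, and their capitals mark the motif GAAANNGAAA on either strand: IFIT1 (chr10:89392373-89392672, plus strand) and IFI44L (chr1:78620198-78620497, plus strand).
TNFRSF9: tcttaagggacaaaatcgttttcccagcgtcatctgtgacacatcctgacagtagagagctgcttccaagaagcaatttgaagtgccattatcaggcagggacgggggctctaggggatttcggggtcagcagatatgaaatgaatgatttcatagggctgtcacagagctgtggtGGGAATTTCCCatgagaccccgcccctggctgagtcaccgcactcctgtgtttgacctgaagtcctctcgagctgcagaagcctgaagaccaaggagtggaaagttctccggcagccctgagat
EBI3: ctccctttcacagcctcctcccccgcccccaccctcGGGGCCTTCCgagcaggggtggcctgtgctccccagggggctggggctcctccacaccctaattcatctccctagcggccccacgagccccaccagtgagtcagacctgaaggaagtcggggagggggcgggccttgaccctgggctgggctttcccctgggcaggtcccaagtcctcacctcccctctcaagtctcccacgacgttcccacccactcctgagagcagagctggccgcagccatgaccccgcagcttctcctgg
NFKBIA: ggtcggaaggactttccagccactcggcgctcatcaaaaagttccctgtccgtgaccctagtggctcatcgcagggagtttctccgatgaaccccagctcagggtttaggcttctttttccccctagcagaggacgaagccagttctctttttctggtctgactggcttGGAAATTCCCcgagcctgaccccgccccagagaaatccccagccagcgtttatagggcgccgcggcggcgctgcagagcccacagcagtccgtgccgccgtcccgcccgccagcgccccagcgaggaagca
BIRC3: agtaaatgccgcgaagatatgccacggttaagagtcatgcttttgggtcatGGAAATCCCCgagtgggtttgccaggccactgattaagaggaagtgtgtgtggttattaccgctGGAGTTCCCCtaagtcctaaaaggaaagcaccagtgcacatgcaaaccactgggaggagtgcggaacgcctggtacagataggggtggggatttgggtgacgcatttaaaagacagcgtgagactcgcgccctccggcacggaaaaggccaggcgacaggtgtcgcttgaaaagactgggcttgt
IFIT1: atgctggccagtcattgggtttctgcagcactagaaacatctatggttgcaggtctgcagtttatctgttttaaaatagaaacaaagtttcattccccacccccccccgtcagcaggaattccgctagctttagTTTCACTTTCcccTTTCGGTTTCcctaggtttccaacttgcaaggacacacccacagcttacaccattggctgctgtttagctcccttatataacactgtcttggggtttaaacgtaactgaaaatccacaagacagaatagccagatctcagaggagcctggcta
IFI44L: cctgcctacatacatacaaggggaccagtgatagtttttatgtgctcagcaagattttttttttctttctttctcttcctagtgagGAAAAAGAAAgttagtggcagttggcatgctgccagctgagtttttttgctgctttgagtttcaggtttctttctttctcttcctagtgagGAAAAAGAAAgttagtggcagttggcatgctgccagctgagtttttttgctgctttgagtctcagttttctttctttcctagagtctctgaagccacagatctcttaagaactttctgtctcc
In IFIT1 both matches lie on the reverse strand, 3 bases apart. In TNFRSF9 the capitals hold 2 overlapping matches. Over all 14570 windows of the 9953 tested genes that have one, 13.2% hold the kB consensus and 3.01% hold GAAANNGAAA, so the kB letters alone are common. Among the named genes the matches were not confined to 1 direction of the difference. FSTL3 and CXCL12, also lower in the RelA knockout, held no kB match. RRM2 and S1PR1, higher in the RelA knockout, did hold kB matches. BBC3 and BCL2A1, which were lower, held GAAANNGAAA. A match is a description of the letters and not a shown binding site. The kB consensus lay in 12% of windows of genes called higher and 16% of those called lower. For GAAANNGAAA the shares were 3.27% and 2.59%. Windows existed for 84.0% of the genes called higher and 78.7% of those called lower, against 80.4% of all tested genes. The differences between these shares were not tested.

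Recovered reads were 20.4, 20.7 and 19.8 M in the RelA knockout libraries 1, 2 and 3, and 18.4, 18.7 and 30.5 M in the p52 knockout libraries. The controls had 20.9, 23.5 and 37.5 M reads. Within each group 1 library was shifted toward short transcripts: across genes its deviation from the group mean had a rank correlation with transcript length of -0.36 in RelA library 2, -0.44 in p52 library 3 and -0.53 in control 3, and results that rest on p52 library 3 are given with and without it. Replicates differed by more than counting error, with a mean chi-square per gene of 4.08 to 8.05 within the RelA and 7.04 to 33.3 within the p52 libraries. These are bulk libraries, so fewer cells of a type and less RNA per cell cannot be told apart.

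Values below are normalised read counts, for libraries 1, 2 and 3 in that order or as mean ± SD (n = 3), and compare 1 gene between libraries, not genes with one another. Differences are log2(RelA knockout + 1) minus log2(p52 knockout + 1), with their standard error (SE). A gene counts as called where limma gave an adjusted p (Benjamini-Hochberg) under 0.05. Of the 12381 genes, 6494 (52.5%) were called between the 2 knockouts: 3276 (26.5%) higher and 3218 (26%) lower in the RelA knockout. At least 2-fold differences made up 706 of the calls (5.7% of genes), with 132 genes higher (1.07%) and 574 lower (4.64%). The libraries of the 2 knockouts did not overlap in 6873 genes (55.5%). Against the control, the RelA knockout differed in 687 genes (5.55%; 361 or 2.92% higher and 326 or 2.63% lower). The p52 knockout differed from the control in 6295 genes (50.8%; 3028 or 24.5% higher and 3267 or 26.4% lower). These 3 comparisons share libraries. Principal components were taken over all 18 libraries. On the first, with 51.1% of the variance, the RelA libraries lay at -27.7 to -23.4, the p52 libraries at 13.5 to 18.8 and the controls at -26.6 to -20.8. RelB knockout libraries, not compared here, lay furthest out on it, at 49.8 to 52.7. On the second, with 13.6%, the RelA libraries lay at -16.3 to -13.4, apart from the controls at -6.5 to -2.4. The p52 libraries lay there at 24 to 24.7. Without RelA library 3 the RelA knockout differed from the control in 413 genes, without RelA library 1 in 454 and without control 1 in 442.

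B-cell identity was present in all 9 libraries. MS4A1 (CD20) stood at 22468, 21653 and 25836 in the RelA knockout, against 24612, 24305 and 25220.5 in the p52 knockout and 25219, 24184 and 24337 in the control, and did not pass the test between the knockouts (adjusted p = 0.32). Of the 10 B-cell markers 3 were called higher and 3 lower, near the 26.5% higher and 26% lower over all genes. CD22, an inhibitory B-cell receptor, stood at 3513, 3149.6 and 3448 in the RelA knockout, against 5868, 5765 and 5529 in the p52 knockout and 4093, 3775 and 3961 in the control (-0.76). CD79A, a chain of the B-cell receptor, stood at 5886, 6202 and 5690 in the RelA knockout, against 4196, 4175 and 4475 in the p52 knockout and 5045, 5099.6 and 6059 in the control (0.47).

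The genes with the smallest p were FSTL3, KREMEN2, CXCL12 and FAM129C. FSTL3, a secreted activin-binding protein, stood at 137, 154 and 134 in the RelA knockout, against 1340, 1341 and 1486 in the p52 knockout and 691, 796 and 802 in the control (log2 difference -3.29, SE 0.12, adjusted p = 3.6e-15). The 3 groups did not overlap, with the RelA libraries far below the controls and the p52 libraries above them. KREMEN2, a co-receptor that dampens Wnt signalling, showed the same order at 209, 194 and 144 in the RelA knockout, 1132, 991 and 971 in the p52 knockout and 542, 518 and 536 in the control (-2.51, SE 0.11, adjusted p = 3.1e-13). So did CXCL12, the chemokine that binds CXCR4, at 203, 142 and 178 in the RelA knockout, 830.5, 773 and 786 in the p52 knockout and 346, 345 and 332 in the control (-2.20, SE 0.10, adjusted p = 3.9e-13). Against the control, all 3 were called lower in the RelA knockout (-2.42 for FSTL3, -1.55 for KREMEN2 and -0.98 for CXCL12) and higher in the p52 knockout (0.86, 0.95 and 1.22 for the same genes).

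FAM129C ran the other way, with 1237, 1148 and 1168 in the RelA knockout, 180.2, 176 and 181 in the p52 knockout and 404, 516 and 463 in the control (2.72, SE 0.09, adjusted p = 3.6e-15). Again no libraries of different groups overlapped. It was called on both sides of the control, at 1.37 in the RelA knockout and -1.35 in the p52 knockout.

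In some of the lowest genes the RelA libraries overlapped the controls. L1CAM, a neural adhesion molecule, stood at 6.72, 7.83 and 3.45 in the RelA knockout, against 91.9, 139 and 158 in the p52 knockout and 8.82, 5.92 and 7.11 in the control, a 19.0-fold difference on the log2(value + 1) scale (adjusted p = 2.2e-09). ABCC3, a drug and bile-salt efflux pump, stood at 10.1, 10.1 and 11.5 in the RelA knockout, against 106, 122 and 105 in the p52 knockout and 7.72, 8.87 and 14.9 in the control (-3.28, SE 0.23). For both genes the p52 libraries lay above all others, and the RelA knockout did not pass the test against the control (adjusted p = 0.7 for L1CAM and 0.93 for ABCC3). TMPRSS6, a membrane protease known from hepatic iron control, had 3.36, 7.83 and 5.76 in the RelA knockout, 100.2, 127 and 97.2 in the p52 knockout and 19.9, 11.8 and 16.2 in the control (-4.09, SE 0.26). ACHE, the enzyme that degrades acetylcholine, averaged 19.2 ± 4.27 in the RelA knockout, 160 ± 31.3 in the p52 knockout and 54.1 ± 8.31 in the control. DBNDD1 (-3.11), the microtubule-binding MAP7D2 (-3.27), the erythroid spectrin SPTB (-2.89), the gastric proton pump ATP4A (-2.49), the phospholipase PLCH2 (-2.44), the myeloid receptor TREM1 (-2.40) and the liprin PPFIA4 (-2.36) complete the 14 lowest with TNFRSF9, described with its family.

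Among the 14 highest, SLC2A5, the fructose transporter, stood at 1603, 1635 and 1584 in the RelA knockout, against 552, 503 and 472 in the p52 knockout and 1308, 1335 and 1461 in the control (1.66, SE 0.08, adjusted p = 4.2e-13). CRYM, a thyroid hormone-binding protein, stood at 119, 158 and 132 in the RelA knockout, against 29.8, 28.9 and 28.1 in the p52 knockout and 38.6, 47.3 and 61.4 in the control (2.19, SE 0.18). For SLC2A5 the control libraries lay near the RelA libraries, and for CRYM near the p52 libraries. The calcium sensor NCS1 (1.46), the sorting receptor SORT1 (1.54), the Wnt pathway protein DACT1 (1.58) and the ubiquitin ligase RNF157 (1.61) were also higher. C3orf20 averaged 128 ± 13 in the RelA knockout, 45.0 ± 10.8 in the p52 knockout and 133 ± 29 in the control. The remaining ones belong to the gene groups that follow.

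**Figure D1:**
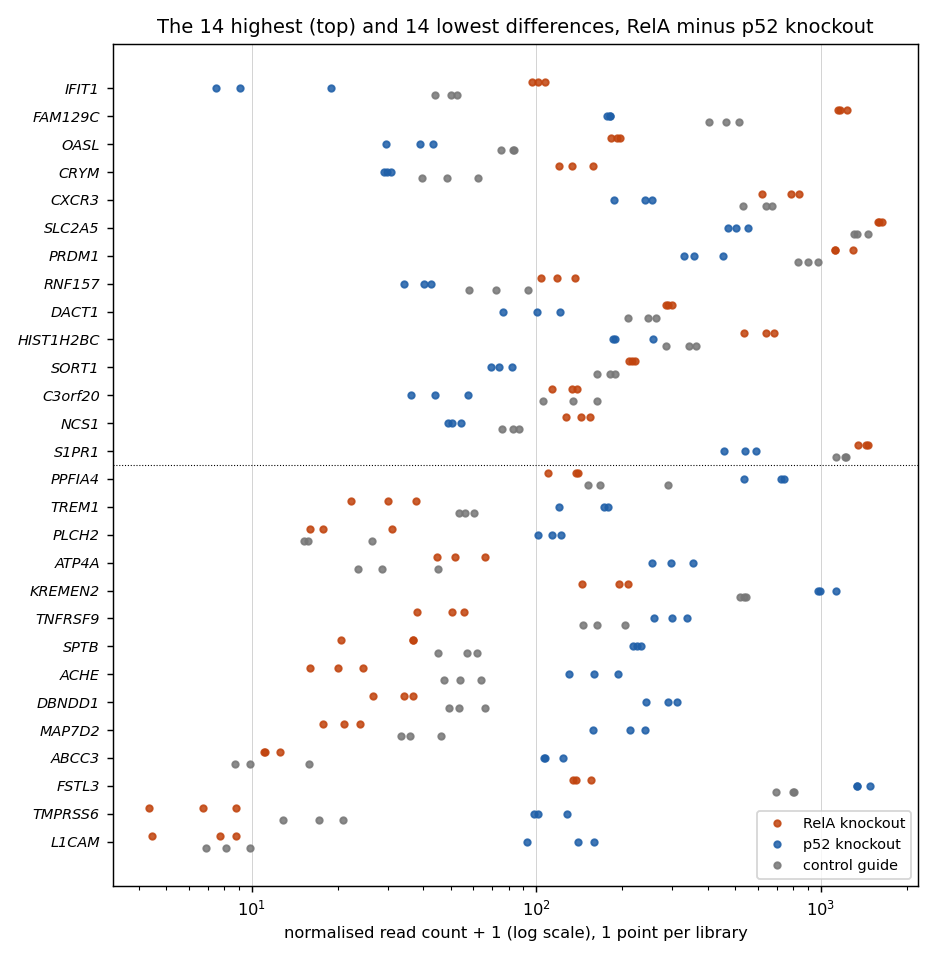
Normalised read count plus 1 on a log axis for the 14 highest (above the dotted line) and the 14 lowest log2 differences among called genes whose knockout libraries did not overlap and whose higher group mean was at least 100; each point is 1 library, with RelA knockout, p52 knockout and control in separate rows for each gene. In FSTL3 and FAM129C the control libraries lie between the knockouts, and in L1CAM and ABCC3 they overlap the RelA libraries.

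The subunit genes were read first as a check of the labels. RELA itself stood at 1403, 1369.6 and 1332 in the RelA knockout, against 2788, 2916 and 2364 in the p52 knockout and 2237, 2175 and 2212 in the control (-0.97, SE 0.06, adjusted p = 9.6e-11). All RelA libraries lay below all others. NFKB2, the gene targeted in the p52 knockout, stood at 6779, 6822 and 6411 in the RelA knockout, against 6508, 6171 and 6281 in the p52 knockout and 8578, 8698 and 8422 in the control. The knockouts overlapped and did not pass the test (0.08, SE 0.06, adjusted p = 0.26, and -0.08 after quantile normalization), and both lay below the control, so this mRNA does not check the p52 label. Small CRISPR deletions need not lower an mRNA.

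RELB, the partner of p52, was the subunit gene with the largest difference. It stood at 1865, 2024 and 1772 in the RelA knockout, against 4296, 4281 and 4204 in the p52 knockout and 3422, 3137 and 3399.6 in the control (-1.18, SE 0.06, adjusted p = 3.4e-12). The p52 libraries lay above and the RelA libraries below every control. NFKB1, which encodes p105 and p50, averaged 5138 ± 288 in the RelA knockout, 6416 ± 534 in the p52 knockout and 7066 ± 305 in the control (-0.32, SE 0.06, adjusted p = 0.00015). REL, which encodes cRel, stood at 1817, 1330.5 and 1833 in the RelA knockout, against 1845, 1676 and 1097 in the p52 knockout and 1554, 1717 and 856 in the control, with wide overlap and no call (0.13, SE 0.19, adjusted p = 0.59, and -0.10 without p52 library 3).

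Genes of the NF-kB inhibitors were mostly lower in the RelA knockout. Of 16 tested feedback genes 11 were called lower and 1 higher, with a median difference of -0.38, against 26% lower, 26.5% higher and a median of 0.003 over all genes. NFKBIE, which encodes IkB-epsilon, stood at 1401, 1424 and 1253 in the RelA knockout, against 3237, 2965 and 3409.8 in the p52 knockout and 2346, 2082 and 2270.5 in the control (-1.24, SE 0.07, adjusted p = 1.6e-11). The RelA libraries lay below and the p52 libraries above all controls. NFKBIA, whose promoter window is printed above, was ordered differently: 3212, 3652 and 2997 in the RelA knockout, 5156, 4991 and 5182 in the p52 knockout and 6812, 6730.1 and 7313 in the control (-0.64, SE 0.07, adjusted p = 6.9e-08). Both knockouts lay below the control, the RelA knockout the further (-1.08 against the control, and -0.44 for the p52 knockout). TNFAIP2, a TNF-induced gene, averaged 2345 ± 27.6 in the RelA knockout, 4784 ± 292 in the p52 knockout and 3474 ± 158 in the control (-1.03). TNIP1, the A20-binding adaptor ABIN1, averaged 7762 ± 123 in the RelA knockout, 12475 ± 485 in the p52 knockout and 9729 ± 632 in the control (-0.68). The deubiquitinases CYLD (-0.44), OTULIN (-0.47) and TNFAIP3, known as A20 (-0.24), were lower as well. NFKBIZ, a nuclear IkB protein that coactivates some targets, was the gene called higher, at 514 ± 11.9 in the RelA knockout and 335 ± 39.8 in the p52 knockout (0.63).

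Among genes of upstream signalling the same direction was more frequent. Of 22 tested genes for TRAF adaptors, cIAPs and kinases 10 were called lower and 2 higher (median -0.15). BIRC3, the ubiquitin ligase cIAP2 and itself a known NF-kB target, stood at 5136, 4844 and 5623 in the RelA knockout, against 8753, 8872 and 9035 in the p52 knockout and 7629.7, 7550.3 and 7302 in the control (-0.78, SE 0.06, adjusted p = 4.4e-10). TRAF3, which restrains the kinase NIK, was lower (-0.41, SE 0.06), and MAP3K14, which encodes NIK, did not pass the test (0.11, adjusted p = 0.29). CHUK, the IKK-alpha kinase of the non-canonical arm, was higher, at 1629, 1660.3 and 1804 in the RelA knockout, 1159, 1225 and 1228 in the p52 knockout and 1567, 1758 and 1522 in the control (0.49, SE 0.07).

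**Figure D2:**
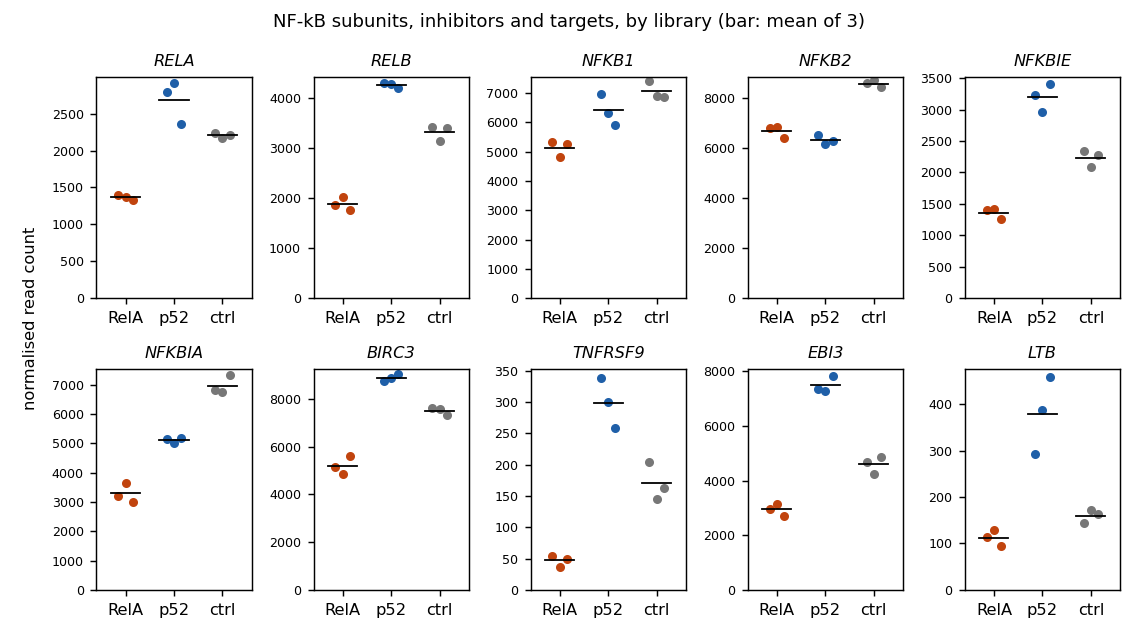
Normalised read counts of NF-kB subunits, inhibitors and targets in each RelA knockout, p52 knockout and control library (points) with the group mean (bar); every axis starts at 0. RELB, NFKBIE, TNFRSF9 and EBI3 have their control libraries between the lower RelA and the higher p52 libraries, while both knockouts lie below the control for NFKBIA and NFKB2.

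Known NF-kB targets of EBV-transformed B cells were lower in 22 of 37 tested cases and higher in 7, with a median of -0.32. EBI3, a subunit of the cytokines IL-27 and IL-35, stood at 2977, 3149.6 and 2717 in the RelA knockout, against 7365, 7266 and 7828 in the p52 knockout and 4686, 4249.8 and 4858 in the control (-1.35, SE 0.06, adjusted p = 4.2e-13). The groups did not overlap, with the control in between. CD83, an activation marker, stood at 2816, 2721 and 2899 in the RelA knockout, against 5272, 5138 and 5403 in the p52 knockout and 5309.6, 4768 and 4732 in the control (-0.91, SE 0.06, adjusted p = 1.2e-10). Here the p52 libraries overlapped the controls (adjusted p = 0.2) and the RelA libraries lay below them. BCL2A1, a survival protein, averaged 1548 ± 60.6 in the RelA knockout, 3350.3 ± 793 in the p52 knockout and 2433 ± 251 in the control. The adhesion molecule ICAM1 (-0.71), the death receptor FAS (-0.80) and the shared cytokine receptor chain IL2RG (-0.95) were also lower. Those called higher included TNF (0.57), the chemokine CXCL10 (0.52) and the transcription factor BATF3 (0.73). TNF averaged 290.3 ± 17.1 in the RelA knockout, 195 ± 7.54 in the p52 knockout and 380 ± 45 in the control, so the p52 knockout was the lowest of the 3 groups.

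Secreted signals went mostly the same way. Of 18 tested chemokine and cytokine genes 12 were lower and 3 higher (median -0.62), 7 and 2 of them at least 2-fold. IL32, a proinflammatory cytokine, stood at 1078, 1067 and 1000.5 in the RelA knockout, against 3466, 3301 and 4176 in the p52 knockout and 2381, 1770.5 and 2599 in the control (-1.79, SE 0.10, adjusted p = 1.3e-11). CSF1, the macrophage growth factor, stood at 468, 446 and 457 in the RelA knockout, against 1505, 1157 and 1074 in the p52 knockout and 1231, 1086 and 1085 in the control (-1.43, SE 0.11, adjusted p = 5e-10). For IL32 the knockouts lay on either side of all controls, and for CSF1 the p52 knockout did not pass the test against the control (adjusted p = 0.36). The lymphocyte growth factor IL7 averaged 100.1 ± 11.9 in the RelA knockout, 282 ± 4.03 in the p52 knockout and 102 ± 11.6 in the control (-1.49). IL15 averaged 161 ± 19.5 in the RelA knockout, 369 ± 16.3 in the p52 knockout and 167 ± 18.7 in the control (-1.20), and for both the RelA libraries overlapped the controls. The T-cell attracting chemokines CCL19 (-1.84), CCL17 (-1.13) and CCL22 (-0.21) were lower as well. IL12A, the p35 chain of IL-12, was higher, averaging 228 ± 6.93 in the RelA knockout, 102 ± 5.51 in the p52 knockout and 161 ± 12.1 in the control (1.15). CXCL9, an interferon-induced chemokine, stood at 51.5, 60.4 and 80.6 in the RelA knockout, against 17.9, 20.8 and 15.8 in the p52 knockout and 8.82, 20.7 and 22.0 in the control (1.75, SE 0.33), with p52 and control libraries overlapping.

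Chemokine and homing receptors were higher in 7 of 12 tested cases, 4 of them at least 2-fold, and lower in 2 (median 0.30). S1PR1, the receptor that guides lymphocytes out of lymphoid organs, stood at 1462, 1436 and 1353 in the RelA knockout, against 588, 539.8 and 455 in the p52 knockout and 1127, 1227 and 1216 in the control (1.43, SE 0.09, adjusted p = 6.9e-11). CXCR3, the receptor for CXCL9 and CXCL10, stood at 784, 833 and 622 in the RelA knockout, against 254, 239 and 186 in the p52 knockout and 530.4, 638 and 670.2 in the control (1.72, SE 0.15, adjusted p = 5.7e-09). For both genes the p52 libraries lay below all others, and the RelA knockout did not pass the test against the control (adjusted p = 0.13 for S1PR1 and 0.31 for CXCR3). ACKR3, a scavenger of CXCL12, averaged 342 ± 27.4 in the RelA knockout, 666 ± 93.8 in the p52 knockout and 268 ± 18.9 in the control (-0.95). CCR7, which steers cells to lymph nodes, was lower (-0.46).

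Receptors of the TNF family were lower in 11 of 18 tested cases and higher in 3, with a median of -0.64 and 5 at least 2-fold lower. TNFRSF9 stood at 54.9, 36.9 and 49.5 in the RelA knockout, against 338, 299 and 258 in the p52 knockout and 204, 145 and 163 in the control (-2.65, SE 0.15, adjusted p = 1.1e-11). Its 3 groups did not overlap. TNFRSF18, the costimulatory receptor GITR, stood at 156, 174 and 106 in the RelA knockout, against 562, 595 and 700.5 in the p52 knockout and 655, 583 and 674 in the control (-2.11, SE 0.15, adjusted p = 2e-10). TNFRSF14, known as HVEM, stood at 1020, 1032 and 1039.7 in the RelA knockout, against 2597, 3005 and 2919 in the p52 knockout and 1374, 1202 and 1315 in the control (-1.46, SE 0.07, adjusted p = 6.6e-13). In TNFRSF18 the p52 libraries overlapped the controls with the RelA libraries below, and in TNFRSF14 the control lay between the knockouts. CD40, the receptor that LMP1 mimics, averaged 1908 ± 56.4 in the RelA knockout, 3663 ± 293 in the p52 knockout and 2309 ± 123 in the control (-0.94). TNFRSF13C, the BAFF receptor that feeds the non-canonical arm, averaged 371 ± 22.9 in the RelA knockout, 741 ± 61.8 in the p52 knockout and 375 ± 41.1 in the control (-0.99). The plasma-cell receptor TNFRSF17, known as BCMA, was higher (0.66), as were TNFRSF8, known as CD30 (0.49), and TNFRSF13B, known as TACI (0.24).

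Of 10 tested ligands of the family 3 were lower and 2 higher (median -0.22), near the 26% lower and 26.5% higher over all genes. LTB, which forms the lymphotoxin ligand of the non-canonical arm, stood at 114, 129 and 95.6 in the RelA knockout, against 292, 387 and 458 in the p52 knockout and 143, 172 and 163 in the control (-1.73, SE 0.16, adjusted p = 8.5e-09). TNFSF13B, which encodes BAFF, averaged 124 ± 21.9 in the RelA knockout, 246 ± 19.2 in the p52 knockout and 124 ± 9.41 in the control (-0.99). CD70, a costimulatory ligand, was lower (-0.49), while TNF, given with the targets, was higher.

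Surface molecules of activated B cells were lower in 17 of 28 tested genes and higher in 5 (median -0.47). CD69, the early activation antigen, averaged 146 ± 24 in the RelA knockout, 421 ± 73 in the p52 knockout and 257 ± 31.9 in the control (-1.51). The receptor SLAMF1 stood at 2755, 2506 and 2926 in the RelA knockout, against 5219, 5638 and 5948 in the p52 knockout and 2989.5, 2599.6 and 2966 in the control (-1.04, SE 0.07). CD274, the checkpoint ligand PD-L1, was lower (-0.75). The integrin chains ITGAL (0.82), ITGB7 (0.85) and ITGA4 (0.49) were higher, and ITGB2 (-0.47) was lower. Without p52 library 1 the number called higher was 3 in place of 5.

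**Figure D3:**
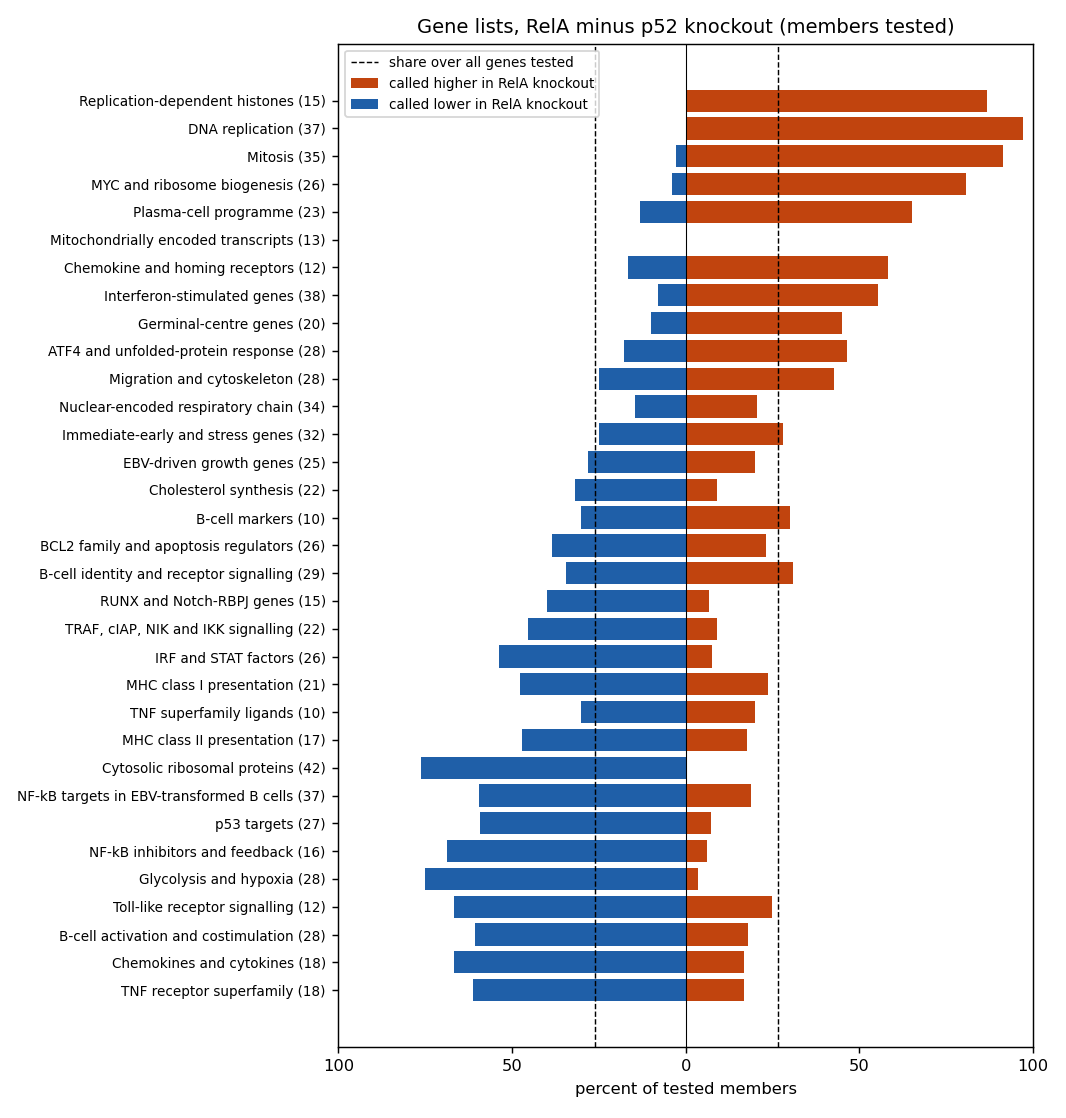
Percent of tested members called higher (right) or lower (left) in the RelA than in the p52 knockout for each gene list with at least 10 tested genes, sorted by median difference; dashed lines are the shares over all 12381 genes, 26.5% and 26%. DNA replication (36 of 37 higher) and cytosolic ribosomal proteins (32 of 42 lower) reach furthest to either side, and without p52 library 3 the ribosomal protein count is 18.

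Cell-cycle genes were higher in the RelA than in the p52 knockout almost throughout. Of 37 tested DNA replication genes 36 were called higher and 0 lower (median 0.57, 3 at least 2-fold), and of 35 mitosis genes 32 were higher and 1 lower (median 0.48). Against the control, all 37 replication genes were called lower in the p52 knockout, where the share over all genes was 26.4%, and 0 were called in the RelA knockout by limma (5 at an unadjusted p under 0.05, 0 by edgeR and 1 by DESeq2). RRM2, which makes deoxynucleotides, stood at 8766, 8839.5 and 8979 in the RelA knockout, against 4626, 4429 and 4442 in the p52 knockout and 8211, 8833 and 9027 in the control (0.98, SE 0.06, adjusted p = 2.3e-11). The RelA and control libraries overlapped and the p52 libraries lay far below. CDC6, which loads the replicative helicase, stood at 2459, 2513 and 2383 in the RelA knockout, against 1315, 1341 and 1261 in the p52 knockout and 2376, 2544 and 2626 in the control (0.91, SE 0.06). The S-phase activator E2F2 averaged 2839 ± 154 in the RelA knockout, 1201 ± 172 in the p52 knockout and 2293 ± 122 in the control. TK1, thymidine kinase, was the member not called (0.15, adjusted p = 0.096).

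Among the mitosis genes BUB1, a checkpoint kinase, stood at 4900.5, 5114 and 5444 in the RelA knockout, against 2817, 2804 and 2759.6 in the p52 knockout and 3873, 4062 and 3934 in the control (0.88, SE 0.07, adjusted p = 4e-10). It lay above the control in the RelA and below it in the p52 knockout (0.38 and -0.50, both called). The spindle motor KIF11 (0.80) and cyclin A2, CCNA2 (0.60), were higher as well. CDC25C was the gene called lower (-0.33), and it was not called without RelA library 1, RelA library 3 or p52 library 3.

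Genes of cell growth had the same direction. Of 26 tested MYC and ribosome biogenesis genes 21 were higher and 1 lower (median 0.42). MYC, which drives them and was itself counted among the EBV-driven growth genes, stood at 8016, 7342 and 7930.5 in the RelA knockout, against 6446, 5473 and 5563 in the p52 knockout and 8017, 7339 and 7983 in the control (0.42, SE 0.09, adjusted p = 0.0004). NCL, the nucleolar protein nucleolin, averaged 44672 ± 1189 in the RelA knockout, 30378 ± 905 in the p52 knockout and 45802 ± 1221 in the control (0.56). The nucleolar factors NOP56 (0.60) and GAR1 (0.65) were higher too. Over this list 22 of 26 genes were lower in the p52 knockout than in the control, beside 26.4% over all genes. In the RelA knockout 1 was lower, beside 2.63% over all genes.

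Replication-dependent histones showed the highest median of the lists, 1.1, with 13 of 15 tested genes higher and 0 lower, 9 of them at least 2-fold. Their main transcripts lack a poly(A) tail, so libraries of polyadenylated RNA see only the tailed part, and reads of such similar genes may be split. HIST1H2BC stood at 683, 641 and 536 in the RelA knockout, against 257, 185 and 187 in the p52 knockout and 284, 343 and 364 in the control (1.57, SE 0.18, adjusted p = 3.1e-07). HIST1H2AC stood at 1382, 1389 and 1186 in the RelA knockout, against 513, 470.4 and 544 in the p52 knockout and 775, 802 and 896 in the control (1.37, SE 0.11). In both genes the RelA libraries lay above and the p52 libraries below all controls. By edgeR and by DESeq2 11 of the 15 were higher. Against the control 8 of 15 were higher in the RelA knockout, beside 2.92% over all genes. In the p52 knockout 8 were lower, beside 26.4% over all genes.

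Targets of p53 were lower in 16 of 27 tested genes and higher in 2 (median -0.35). BBC3, the pro-apoptotic protein PUMA, stood at 404, 359 and 351 in the RelA knockout, against 780.4, 876 and 843 in the p52 knockout and 472, 429.8 and 454 in the control (-1.17, SE 0.09, adjusted p = 7.5e-10). TP53INP1, a stress-induced autophagy protein, averaged 962 ± 110 in the RelA knockout, 2383 ± 318 in the p52 knockout and 657 ± 134 in the control (-1.30). CDKN1A, the cell-cycle inhibitor p21, did not pass the test, averaging 8560.2 ± 350 in the RelA knockout, 8656 ± 165 in the p52 knockout and 7929 ± 448 in the control (adjusted p = 0.82). Nor did MDM2, the p53 inhibitor, averaging 5071 ± 272 in the RelA knockout, 4977 ± 585 in the p52 knockout and 4647 ± 763 in the control (adjusted p = 0.8). Without RelA library 1 or p52 library 3 the number called higher was 1, and after quantile normalization it was 0.

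In the wider apoptosis list 10 of 26 genes were lower and 6 higher, beside 26% lower and 26.5% higher over all genes. BCL2 itself stood at 2380.3, 2266 and 2594 in the RelA knockout, against 4284, 4660.4 and 4266 in the p52 knockout and 2812, 2621 and 2122 in the control (-0.87, SE 0.09, adjusted p = 5.1e-08). PMAIP1, the pro-apoptotic NOXA, was higher at 7093 ± 336 in the RelA knockout against 4676 ± 420 in the p52 knockout (0.60). For BCL2 the RelA libraries overlapped the controls and the p52 libraries lay above them.

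**Figure D4:**
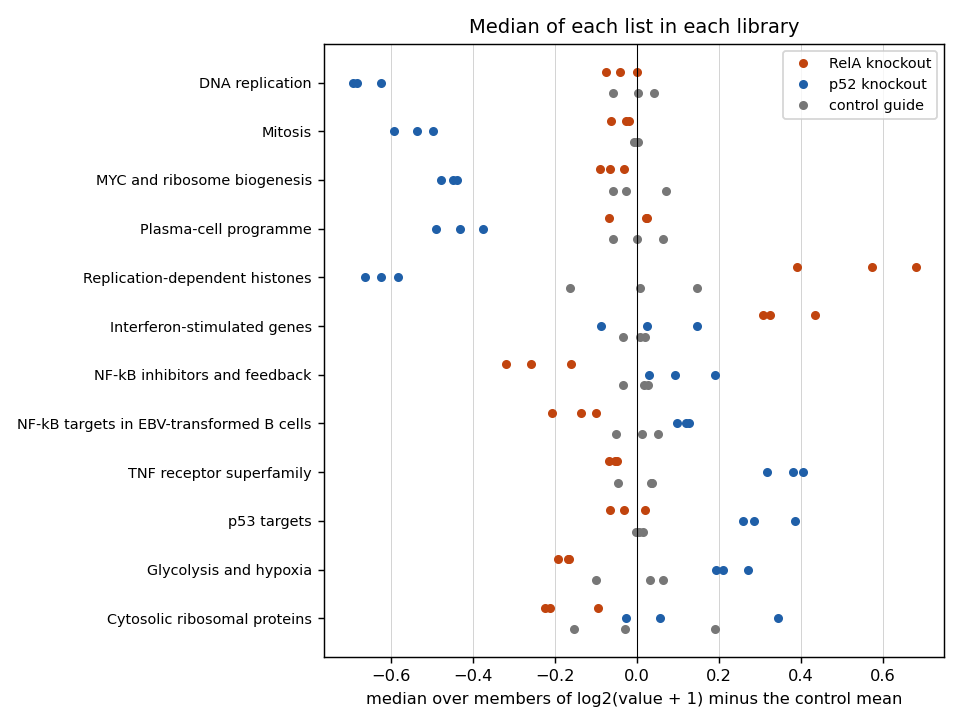
Median over the tested members of each list of log2(value + 1) minus the mean of the 3 controls, by library (points), for 12 lists. The cell-cycle, growth and plasma-cell lists have RelA libraries near 0 and p52 libraries between -0.38 and -0.69, histones separate on both sides of 0, and p52 library 3 stands apart for ribosomal proteins at 0.34.

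Interferon-stimulated genes were higher in 21 of 38 tested cases and lower in 3 (median 0.29), with 5 at least 2-fold higher. After quantile normalization 5 were called lower. IFIT1, which binds foreign RNA, stood at 95.2, 101 and 106 in the RelA knockout, against 17.9, 8.09 and 6.48 in the p52 knockout and 43.0, 49.3 and 51.7 in the control (3.22, SE 0.27, adjusted p = 3.4e-09). IFI44L stood at 63.8, 66.0 and 70.2 in the RelA knockout, against 5.97, 5.78 and 6.48 in the p52 knockout and 24.3, 30.6 and 26.5 in the control (3.26, SE 0.24, adjusted p = 5.2e-10). OASL, a relative of the antiviral oligoadenylate synthetases, stood at 190.3, 181 and 196 in the RelA knockout, against 28.6, 38.1 and 42.5 in the p52 knockout and 73.9, 81.8 and 82.1 in the control (2.36, SE 0.17). In all 3 genes the control libraries lay between the knockouts with no overlap. At higher levels MX1, an antiviral GTPase, averaged 3668 ± 208 in the RelA knockout, 2007 ± 113 in the p52 knockout and 2709.7 ± 11.8 in the control (0.87), and OAS2 averaged 1395 ± 100 in the RelA knockout, 704 ± 14.8 in the p52 knockout and 1043 ± 58.8 in the control (0.98).

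The whole list did not share the direction. PARP14 stood at 2559, 2336 and 2611 in the RelA knockout, against 4869, 4984 and 4086 in the p52 knockout and 2610.1, 2592 and 1963 in the control (-0.89, SE 0.10, adjusted p = 1.3e-07), and the RNA sensor IFIH1 was lower (-0.40). Against the control, 19 of 38 genes were higher and 0 lower in the RelA knockout, beside 2.92% higher and 2.63% lower over all genes. In the p52 knockout 8 were higher and 10 lower, near the 24.5% higher and 26.4% lower over all genes. GBP4, an interferon-induced GTPase, was higher than the control in both knockouts: it averaged 659.5 ± 30.4 in the RelA knockout, 622 ± 62.1 in the p52 knockout and 323 ± 18.1 in the control, and the 2 knockouts overlapped (adjusted p = 0.4).

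Of 26 regulators in the IRF and STAT group 14 were lower and 2 higher (median -0.18). IRF4, a regulator of activated B cells, was among the higher ones (0.22), and without RelA library 1 the number called higher was 1. The survival kinase genes PIM2 (-0.78), PIM3 (-0.61) and PIM1 (-0.59) were lower. Of 12 tested genes of Toll-like receptor signalling 8 were lower and 3 higher, with the kinase IRAK2 at 227, 206 and 241 in the RelA knockout, 539, 554 and 535 in the p52 knockout and 291, 249 and 206 in the control (-1.27, SE 0.10). Its adaptor partner MYD88 was higher (0.44).

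Plasma-cell genes were higher in 15 of 23 tested cases and lower in 3 (median 0.41). PRDM1, the transcription factor Blimp-1 that drives plasma-cell fate, stood at 1123, 1294 and 1119 in the RelA knockout, against 357, 451 and 329.7 in the p52 knockout and 830.4, 979 and 899.7 in the control (1.64, SE 0.10, adjusted p = 2.1e-11). The p52 libraries lay below all others. CD38, a plasma-cell surface enzyme, averaged 58.1 ± 9.59 in the RelA knockout, 15.0 ± 5.7 in the p52 knockout and 25.9 ± 4.54 in the control (1.95). Among its genes for protein folding in the endoplasmic reticulum, the chaperone HSP90B1 (0.76) and the disulfide isomerases PDIA4 (0.73) and PDIA6 (0.71) were higher. SDC1, the plasma-cell marker CD138, was lower instead, at 835, 809.5 and 785 in the RelA knockout, 1496, 1686 and 1514 in the p52 knockout and 965, 923 and 889 in the control (-0.95, SE 0.06, adjusted p = 4.3e-11). XBP1, the secretory-pathway regulator, did not pass the test (-0.07, adjusted p = 0.58).

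The ATF4 and unfolded-protein response list, which holds 2 distinct stress arms, had 13 of 28 genes higher and 5 lower (median 0.12). Over all genes 26.5% were higher and 26% lower. HSPA5, the chaperone BiP, stood at 30291, 31060.2 and 29691 in the RelA knockout, against 15371, 17053 and 17185 in the p52 knockout and 29882, 32908 and 31254 in the control (0.88, SE 0.06, adjusted p = 3e-10). The serine-synthesis enzyme PSAT1 was higher (0.70), while ATF4 itself (-0.25) and its inhibitor TRIB3 (-0.44) were lower. Without p52 library 2 the number called lower was 3.

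Germinal-centre genes were higher in 9 of 20 tested cases and lower in 2. GCSAM and KLHL6 were the lower ones, GCSAM at 3178 ± 225 in the RelA knockout, 6204 ± 481 in the p52 knockout and 3027 ± 199 in the control. In the B-cell identity list 9 of 29 genes were higher and 10 lower, beside 26.5% higher and 26% lower over all genes. The Src-family kinase BLK was lower (-0.86) and the lymphoid factor IKZF1, known as Ikaros, higher (0.68), at 4036 ± 101 in the RelA knockout against 2518 ± 202 in the p52 knockout. Of 25 EBV-driven growth genes 5 were higher and 7 lower, and of 15 RUNX and Notch-RBPJ genes 1 was higher (3 without p52 library 1) and 6 lower. RBPJ, the DNA-binding partner of Notch and of EBV nuclear antigens, was lower (-0.50).

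Glycolysis and hypoxia genes were lower in 21 of 28 tested cases and higher in 1, with a median of -0.41 and 7 at least 2-fold lower. PFKFB4, which raises the glycolytic activator fructose 2,6-bisphosphate, stood at 546, 438 and 455 in the RelA knockout, against 1766, 2126 and 1749 in the p52 knockout and 949, 662 and 672 in the control (-1.97, SE 0.12, adjusted p = 1.6e-11). ALDOC, an aldolase, stood at 1281, 1186 and 1349 in the RelA knockout, against 4402, 4288 and 4303 in the p52 knockout and 2159, 1404 and 1841 in the control (-1.77, SE 0.10). The p52 libraries lay above all others for both genes. BNIP3L, a mitophagy receptor, averaged 2349.9 ± 272 in the RelA knockout, 5236 ± 127 in the p52 knockout and 2955 ± 520 in the control (-1.16). SLC2A1, the glucose transporter GLUT1, was the gene called higher (0.52), and the abundant enzyme genes GAPDH and PKM did not pass the test (adjusted p = 0.69 and 0.38).

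**Figure D5:**
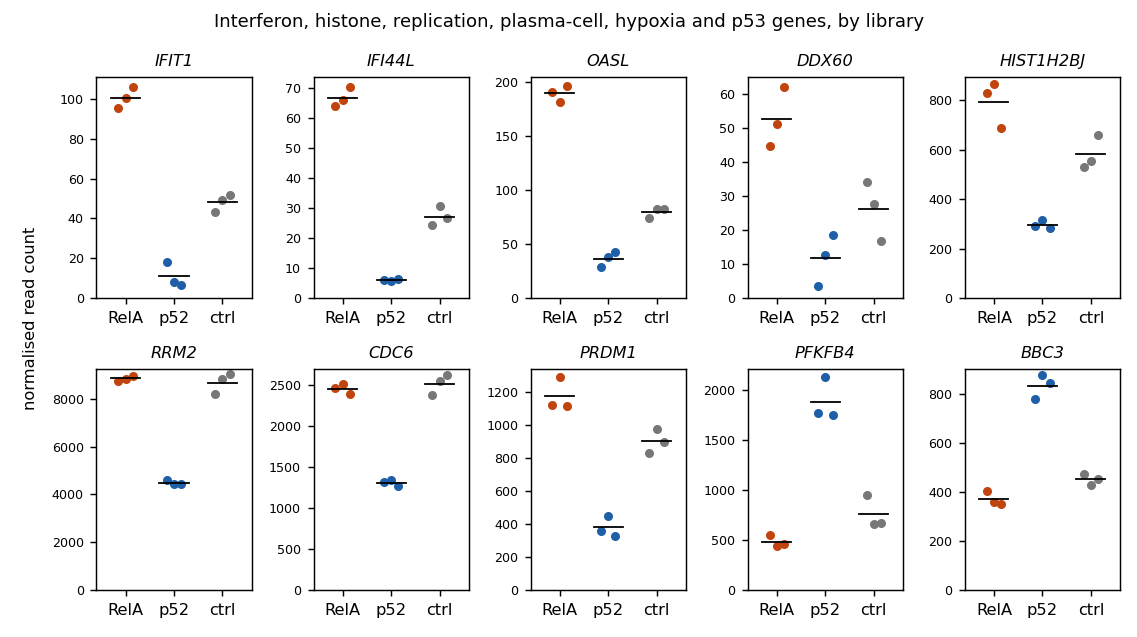
Normalised read counts of 10 genes from the interferon, histone, replication, plasma-cell, hypoxia and p53 lists in each RelA knockout, p52 knockout and control library (points) with the group mean (bar); every axis starts at 0. RRM2 and CDC6 show RelA libraries that overlap the controls and p52 libraries below both, while IFIT1, IFI44L and OASL have the controls between the knockouts.

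Cytosolic ribosomal protein genes were lower in 32 of 42 tested cases and higher in 0 (median -0.28), and the count rests in part on 1 library. RPS3 stood at 38627, 42178 and 38172 in the RelA knockout, against 49592, 53407 and 75646 in the p52 knockout and 47575, 43141 and 56105 in the control (-0.56, SE 0.12, adjusted p = 0.00067). p52 library 3, which is rich in short transcripts, was the highest of the p52 libraries, and without it 18 of the 42 were called lower. As a share of all reads the ribosomal protein genes took 4.3% ± 0.171 in the RelA knockout, 5.73% ± 0.796 in the p52 knockout and 4.81% ± 0.459 in the control (n = 3 each). The RelA minus p52 difference of -1.43 percentage points gave p = 0.1 in a two-sided exact permutation test, the smallest p that 3 against 3 allows. Reads of processed pseudogenes can be mixed into these counts.

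Transcripts of the mitochondrial genome made up 4.08% ± 0.127 of reads in the RelA knockout, 3.77% ± 0.688 in the p52 knockout and 4.31% ± 0.676 in the control, with exact permutation p = 0.4 (n = 3 each, two-sided). By limma 0 of the 13 transcripts were called (1 at an unadjusted p under 0.05, 0 by edgeR and 0 by DESeq2), against 5 called higher when only the 6 knockout libraries were fitted and 3 without p52 library 1.

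Some markers of other cell types were measurable. The summed level of the 9 monocyte and macrophage markers in the table was 523 to 583 in the RelA knockout, 891 to 1008 in the p52 knockout and 554 to 564 in the control, so the p52 libraries lay above all others. Most of it came from CSF1R, at 399.7, 322 and 345 in the RelA knockout, 662, 676 and 580.3 in the p52 knockout and 409, 376 and 383 in the control, and from ITGAM, at 86.2, 111 and 122 in the RelA knockout, 230.3, 249.7 and 240.5 in the p52 knockout and 118, 127 and 122 in the control. Other members did not follow the sum. VCAN lay above the control in both knockouts, at 61.6, 48.1 and 48.4 in the RelA knockout and 60.9, 58.9 and 42.5 in the p52 knockout. Its control values were 12.1, 26.6 and 20.7. MARCO, at low levels, was higher in the RelA knockout (15.7, 12.3 and 13.8) than in the p52 knockout (1.2, 4.6 and 7.2). CD14, a defining marker of monocytes, was at 0 to 2.4 in these 9 libraries.

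The sum of the 11 fibroblast, epithelial and endothelial markers was 1425 to 1590 in the RelA knockout, 1771 to 1978 in the p52 knockout and 1521 to 1684 in the control. Most of it was COL1A1, a collagen chain, at 1013, 1193 and 996 in the RelA knockout, 1341, 1420.5 and 1229.7 in the p52 knockout and 1124, 1318 and 1309 in the control, and the cadherin CDH1 and the actin ACTA2 were also measurable. CDH1 averaged 159 ± 10.6 in the RelA knockout, 215 ± 7.42 in the p52 knockout and 132 ± 23.5 in the control, and ACTA2 averaged 176 ± 10.8 in the RelA knockout, 269.6 ± 31 in the p52 knockout and 179 ± 0.926 in the control. Of 5 tested members 4 were called lower and 1 higher in the RelA than in the p52 knockout, beside 26% and 26.5% over all genes. The higher one was the epithelial EPCAM, at 59.3, 38.0 and 47.2 in the RelA knockout. It stood at 22.7, 28.9 and 38.9 in the p52 knockout and 36.4, 33.5 and 32.3 in the control. The EPCAM values of the 2 knockouts overlapped, and the calls of CDH1 and EPCAM were lost under some other settings. COL1A2, the partner chain of COL1A1, was at 0 to 3.3, and LUM, a fibroblast proteoglycan, at 0 to 1.2.

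For the 14 T and NK cell markers the sum was 510 to 596 in the RelA knockout, 561 to 634 in the p52 knockout and 472 to 639 in the control, and the groups overlapped. Most of it was NKG7, a cytotoxic granule protein, at 379.5, 434 and 362 in the RelA knockout, 444, 477 and 513 in the p52 knockout and 389, 353 and 491 in the control. Of 6 tested members 2 were called higher and 2 lower, beside 26.5% higher and 26% lower over all genes. GNLY, the cytotoxic protein granulysin, stood at 44.8, 49.2 and 47.2 in the RelA knockout, against 5.97, 10.4 and 10.8 in the p52 knockout and 22.1, 32.5 and 33.6 in the control (2.29, SE 0.34, adjusted p = 6.6e-06). LCK was also higher, while NKG7 and PRF1 were lower. PRF1 stood at 17.9, 24.6 and 21.9 in the RelA knockout and 40.6, 25.4 and 38.2 in the p52 knockout. Its control values were 34.2, 31.5 and 38.1. The calls of LCK, NKG7 and PRF1 were lost under some other settings. Of the CD3 chains of the T-cell receptor complex, CD3E averaged 20.3 ± 6.71 in the RelA knockout, 21.6 ± 4.34 in the p52 knockout and 15.3 ± 2.42 in the control, and CD3D was at 0 to 1.2. The part of these markers in the other results was not tested.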

How the data were processed

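RNA-seq of 18 GM12878 libraries was used. Per the submitters' processing notes, the tools were STAR 2.5.2b, featureCounts 1.5.1 and DESeq2 1.14.1, on GRCh37. The sources used here give neither annotation release nor strand setting, so overlapping and antisense genes are not separated. The deposited values are a normalised signal by the authors, read counts divided by a size factor: dividing by the worth of 1 read gave whole reads for 100% of 308790 values (tolerance 0.001). Limma 3.58.1 with an intensity trend was fitted on log2(value + 1) to all 18 libraries, a mean per group, for 12381 genes, two-sided. Fold changes understate low genes. Replicates are called biological, but separate cultures are not stated, so p-values measure the spread among these libraries. Alternatives were edgeR 4.0.16 and DESeq2 1.42.0 on recovered reads, other scalings, filters and pseudocounts, a replicate block, and leaving out each library. The comparison, the 37 gene lists and the naming rule were chosen with earlier results of these data known. The rule named the 5 subunit genes, the 14 highest and 14 lowest called genes whose knockouts did not overlap and whose higher mean was at least 100, the 4 called members of lowest p in every list, where there were as many, and the 4 genes of lowest p overall. Other list members were chosen after their values were seen. Some results are not reported here.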

Additional observations from a re-analysis of the deposited data

How the results depend on the processing

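Under 11 other settings the number of genes called between the RelA and p52 knockouts ran from 5593 (mean of at least 100) to 6899 (length trend removed), with 6443 by edgeR and 6354 by DESeq2 on the recovered reads. Leaving out 1 library gave 5758 to 6204 (higher 2946 to 3160, lower 2812 to 3048), 5443 to 6195 for p52 against control, and 413 to 848 for RelA against control. That count was 411 with only the 9 libraries of these groups in the fit. The share of reads differed by 0.0753 to 0.705 points (mitochondrial) and -1.76 to -0.984 points (ribosomal protein) without 1 library. Replicate numbers did not pair the RelA with the p52 samples (correlations of deviations 0.103, -0.072 and 0.027), and with a replicate block 6740 genes were called. Between p52 and control libraries of the same number the correlations were 0.062, 0.151 and 0.397, the last for the 2 libraries numbered 3. Between RelA and control libraries they were 0.089, -0.084 and -0.099. NFKB2 turned to -0.076 after quantile normalization and REL to -0.098 without p52 library 3 (-0.098 to 0.280 without 1 library), neither called. The cause was not tested. Of 2634 values for 156 named genes 2619 kept direction and call and 13 lost the call (CDH1, EPCAM, LCK, NKG7 and PRF1). Against the control 127 of 3302 values lost it, among them IFIT1 in the RelA knockout (adjusted p = 0.052 to 0.094 without 1 library) and PRDM1. Of 1258 list counts 43 moved by over 1.5 times, and interferon-stimulated genes called lower were 5 in place of 3 after quantile normalization. Low genes are limited by depth: 1 read was worth 0.72 to 1.19 normalised counts in the knockout libraries.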

Other observations

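Antigen presentation genes were more often lower than higher in the RelA knockout. Of 21 tested class I genes 10 were lower and 5 higher in the RelA than in the p52 knockout (median -0.20, from -0.76 to 0.90). Of 17 class II genes 8 were lower and 3 higher (median -0.22, from -0.51 to 0.67). Over all genes 26% were lower and 26.5% higher. The peptide-loading chaperone CALR was higher, at 26237 ± 1690.5 in the RelA knockout, 14052 ± 106 in the p52 knockout and 26222 ± 2113 in the control (log2 difference 0.90, adjusted p = 6.7e-10 by limma). HLA-DMA and HLA-DMB, which load peptide on class II, were higher (0.41 and 0.67), as was CIITA, the class II activator (0.48), while HLA-DQB1 was lower (-0.51).

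Cytoskeletal genes were higher in 12 of 28 tested cases and lower in 7. ACTG1, cytoplasmic actin, averaged 137190.1 ± 7410 in the RelA knockout, 91798 ± 4249 in the p52 knockout and 135136 ± 8742 in the control (0.58). VCL, which anchors actin at adhesions, averaged 1703 ± 53.6 in the RelA knockout, 1016 ± 91.8 in the p52 knockout and 1138 ± 97.5 in the control (0.75), and was called against the control in the RelA knockout (adjusted p = 3.4e-05) but not in the p52 knockout (0.085). Immediate-early genes were higher in 9 of 32 and lower in 8, near the 26.5% and 26% over all genes, with the heat-shock protein HSPH1 at 7449.8, 8463 and 8976 in the RelA knockout, 3059.6, 3590 and 3651 in the p52 knockout and 5690.1, 7307 and 6742 in the control (1.27, SE 0.09). The quiescence factor KLF2 was higher (1.22) and the orphan receptor NR4A1 lower (-0.77).

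In 22 tested cholesterol synthesis genes 2 were higher (5 without p52 library 3) and 7 lower, with LSS, which makes lanosterol, at -0.53. Of 34 nuclear genes of the respiratory chain 7 were higher and 5 lower, against 13 higher and 3 lower without p52 library 3, and 4 higher and 8 lower after quantile normalization. In the main fit 40.9% of the cholesterol and 35.3% of the respiratory chain genes were called. Both lay below the 52.5% called over all genes (26.5% higher and 26% lower).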
